A study of Arabidopsis thaliana with 6 samples.

Results

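Acetyltransferases of the plant hemicelluloses xylan and mannan were followed in rosettes of Arabidopsis thaliana through 6 TBL (TRICHOME BIREFRINGENCE-LIKE) genes, of 13356 genes that had a probe set paired with them alone. The genes were chosen by name: TBL23 and TBL25 for the mannan clade, and TBL28, TBL30, TBL32 and TBL34 for the xylan clade. Each of the 6 had 1 such probe set, so that no choice between probe sets was needed. The study compared 3 arrays of the pmr5 mutant with 3 arrays of wild type Col-0, the background of the mutant. All plants were 3 weeks old and untreated, and shared the same temperature and photoperiod. The labels name the mutant only as pmr5, without the allele, and no probe set was paired with PMR5 itself, so the genotype was not checked here by its transcript. They call the 3 samples of a genotype biological replicates without naming separate sowings or the number of plants in each, so p-values measure the spread between these samples.

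TBL proteins are Golgi enzymes with a DUF231 domain that transfer acetyl groups onto wall polysaccharides. Xylan is the main hemicellulose of secondary walls, above all in xylem, where its acetyl groups affect how it folds onto cellulose. Mannan is a minor hemicellulose of the Arabidopsis wall, and its acetyl groups are added by a separate branch of the same family. PMR5 is another member of this family, tied to pectin rather than to the hemicelluloses, and pmr5 plants resist powdery mildew.

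The values were log2 signals with a shared lowest value of 2.19, which filled 25.0% to 26.3% of the probe sets of an array. The array medians were 4.71 to 4.78 in pmr5 and 4.68 to 4.73 in Col-0. Col-0 replicate 1 stood apart from the other 5 arrays on the first principal component, with a score of 52.3 against -30.5 to 12.2, and differences are therefore given with and without it. It was not the only unusual array. When limma weighted the arrays by their fit, the lowest weight was that of pmr5 replicate 2, 0.36, followed by Col-0 replicate 1 at 0.53. As markers of the leaf, RCA, LHCB4.2 and LHCB4.1, which serve carbon fixation and light harvesting, averaged 15.2, 14.7 and 14.5 over the 6 arrays. Of the 2 measured root markers, the root hair expansin gene EXPA7 was at the lowest value on every array, while PYK10, for a beta-glucosidase of ER bodies, averaged 4.44.

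The mannan clade gave the higher signals. TBL25 averaged 9.12 over the 6 arrays, above 89.7% of all probe sets, and TBL23 averaged 6.46, above 65.8%. In the xylan clade TBL28 averaged 5.63, TBL32 4.48, TBL34 3.27 and TBL30 2.60. The order TBL25, TBL23, TBL28, TBL32, TBL34, TBL30 was the same on 6 of 6 arrays. The lowest mannan clade value, 6.24 for TBL23, lay above the highest xylan clade value, 5.96 for TBL28. Of the 5 pairs of neighbours in this order only TBL28 and TBL32 had ranges that overlapped across arrays, and on each single array they were 0.61 to 1.65 log2 units apart. Signals of different probe sets also depend on how well each binds its target, so this order is one of signals and not of transcript numbers. TBL30 lay 0.41 log2 units above the lowest value and TBL34 1.08, and so near that value a difference may be seen only in part.

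All 6 genes had a lower mean in pmr5 than in Col-0, and 0 of the 6 passed the test. The differences were -0.19 for both mannan genes and between -0.48 and -0.08 in the xylan clade. In the limma fit over 22746 probe sets every member had an adjusted p of 1, and 0 had an unadjusted p under 0.05. Over all probe sets 0 (0%) passed the adjusted threshold, and 591, or 2.60%, had an unadjusted p under 0.05. A statistic with unequal variances and none shared between probe sets also called 0 probe sets and 0 members after adjustment. A lower mean in pmr5 was found for 41.4% of all probe sets and for 50.0% of the 15900 that varied between arrays and never touched the lowest value. The median difference over the 6 members was -0.19, against 0 over all probe sets. In 0 of the 6 members did the genotypes separate without overlap, where 2.25% of all probe sets did so toward lower values in pmr5. TBL34 could not have separated, since it held 1 value on 4 of the 6 arrays. In bulk rosettes, fewer cells of a type and less RNA per cell cannot be told apart.

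**Figure D1:**
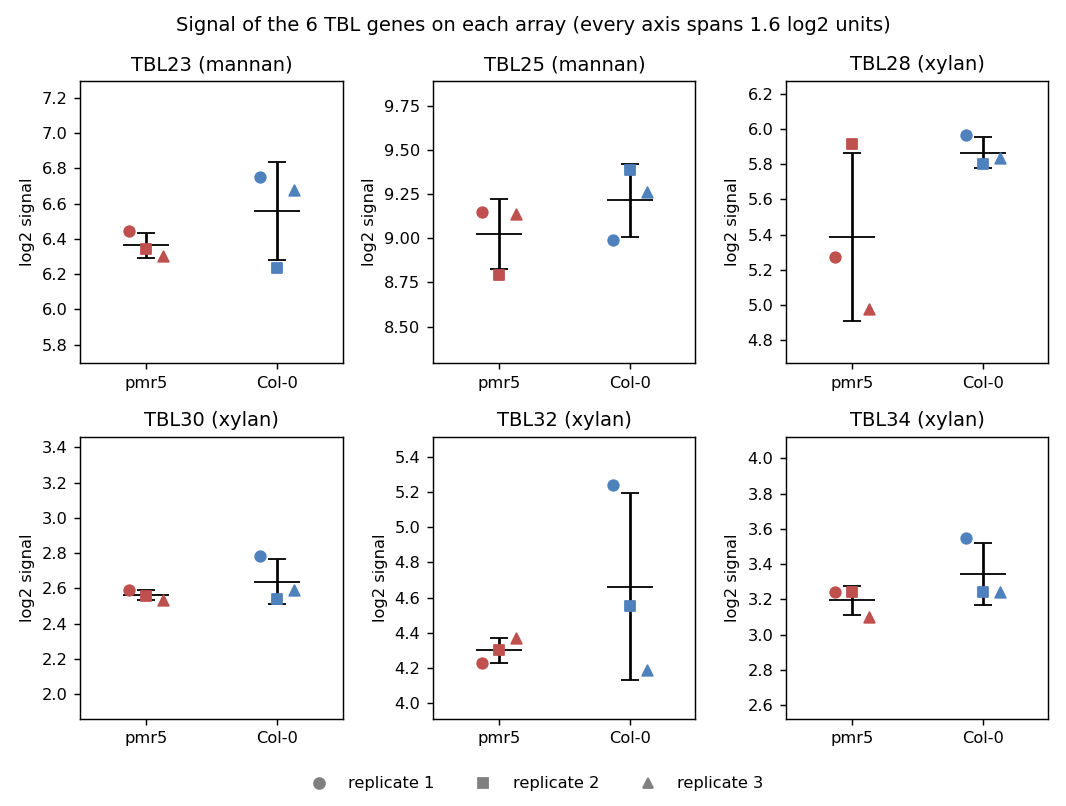
Log2 signal (vertical axis, 1.6 log2 units high in every panel) of the 6 TBL genes in pmr5 and Col-0, with 1 point per array shaped by replicate number, a horizontal bar for the mean and error bars of 1 SD (n = 3). The genotypes overlap in every panel, and Col-0 replicate 1 (circle) is the highest point for 5 of the 6 genes.

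TBL23 (AT4G11090) encodes an enzyme that acetylates mannosyl residues of mannan. Its log2 signal was 6.44, 6.34 and 6.30 on the pmr5 arrays, against 6.75, 6.24 and 6.68 on the Col-0 arrays. The pmr5 arrays lay close together, below Col-0 replicates 1 and 3 and above Col-0 replicate 2. The means were 6.36 ± 0.07 in pmr5 and 6.56 ± 0.28 in Col-0 (SD, n = 3), a difference of -0.19 (SE 0.16, 95% interval -0.62 to 0.23; exact permutation p = 0.4). Leaving out Col-0 replicate 1 gave -0.10, and leaving out Col-0 replicate 2 gave -0.35.

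TBL25 (AT1G01430) encodes another enzyme of mannan acetylation. Its log2 signal was 9.15, 8.79 and 9.14 in pmr5, against 8.99, 9.39 and 9.27 in Col-0. Here the low arrays were pmr5 replicate 2 and Col-0 replicate 1, and Col-0 replicate 1 lay below both other pmr5 arrays. The means were 9.03 ± 0.20 in pmr5 and 9.22 ± 0.21 in Col-0 (SD, n = 3), a difference of -0.19 (SE 0.16, 95% interval -0.61 to 0.23; exact permutation p = 0.4). TBL25 was the only member whose difference grew without Col-0 replicate 1, to -0.30. It was -0.07 without pmr5 replicate 2.

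TBL28 (AT2G40150), of the xylan clade and close to ESK1, the main xylan acetyltransferase of Arabidopsis stems, had the widest difference among the 6 with all arrays in the fit. TBL32 had the wider one when Col-0 replicate 3 (-0.60, against -0.49 for TBL28) or pmr5 replicate 3 (-0.39, against -0.27 for TBL28) was left out. The log2 signal of TBL28 was 5.27, 5.91 and 4.98 in pmr5, against 5.96, 5.80 and 5.84 in Col-0. The Col-0 arrays were tightly grouped, pmr5 replicates 1 and 3 lay below all of them, and pmr5 replicate 2 lay among them. The means were 5.39 ± 0.48 in pmr5 and 5.87 ± 0.09 in Col-0 (SD, n = 3), a difference of -0.48 (SE 0.27, 95% interval -1.19 to 0.24; exact permutation p = 0.3). Leaving out Col-0 replicate 1 gave a difference of -0.43. Leaving out the high pmr5 array, replicate 2, gave -0.74, and leaving out the lowest, replicate 3, gave -0.27. The smallest adjusted p of TBL28 in limma over its 13 alternatives was 0.367.

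TBL30 (AT2G40160), also of the xylan clade, is the next protein-coding gene to TBL28 in the RefSeq gene table. Its log2 signal was 2.59, 2.56 and 2.54 in pmr5, against 2.79, 2.54 and 2.59 in Col-0. Apart from Col-0 replicate 1 the arrays of both genotypes covered the same narrow range just above the lowest value. The difference of -0.08 (SE 0.07, 95% interval -0.27 to 0.12; exact permutation p = 0.5) became -0.0043 without Col-0 replicate 1. Unlike TBL28, its neighbour had no pmr5 array clearly below those of Col-0. Across the 6 arrays TBL28 and TBL30 had a Pearson r of 0.43 (exact permutation p = 0.349) and a Spearman rho of 0.60 (exact permutation p = 0.242). Without Col-0 replicate 1 r was 0.15. Without the 2 arrays farthest from the median of TBL28, which were pmr5 replicates 1 and 3, r was 0.76.

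TBL32 (AT3G11030) encodes an enzyme that acetylates xylosyl residues carrying glucuronic acid. Its log2 signal was 4.23, 4.30 and 4.37 in pmr5, against 5.24, 4.55 and 4.19 in Col-0. The 3 pmr5 arrays were close together while the Col-0 arrays spread over about 1 log2 unit on both sides of them. The means were 4.30 ± 0.07 in pmr5 and 4.66 ± 0.53 in Col-0 (SD, n = 3), a difference of -0.36 (SE 0.29, 95% interval -1.15 to 0.43; exact permutation p = 0.4). It was -0.07 without Col-0 replicate 1 and -0.60 without Col-0 replicate 3. The name of its probe set ends in _s_at, a suffix for probes that can match more than 1 transcript, although the platform's annotation pairs it with TBL32 alone.

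TBL34 (AT2G38320) encodes an enzyme that adds acetyl groups to xylan. Its log2 signal was 3.24, 3.24 and 3.10 in pmr5, against 3.55, 3.24 and 3.24 in Col-0. The same value, 3.24, stood on 4 of the 6 arrays, so only Col-0 replicate 1 above it and pmr5 replicate 3 below it carried a difference. Repeated values above the lowest one occurred in 21.7% of all probe sets, whose median signal was 3.08. The difference of -0.15 (SE 0.11, 95% interval -0.43 to 0.14; exact permutation p = 0.6) became -0.05 without Col-0 replicate 1.

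The smallest exact permutation p that 3 against 3 arrays allow is 0.1 where all values differ. For TBL34, which held 1 value on 4 arrays, the smallest possible was the 0.6 that was found. That p therefore says nothing for or against a difference in TBL34. A difference of 1 log2 unit, which is 2-fold, lay outside the 95% intervals of TBL23, TBL25, TBL30 and TBL34 and inside those of TBL28 and TBL32. These intervals are not adjusted for the number of genes, and those of TBL30 and TBL34 come from signals near the lowest value.

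Col-0 replicate 1 had the highest value of all arrays for 5 of the 6 genes, TBL25 being the exception. Without this array 6 of 6 members had a lower mean in pmr5, where the share among the same 15900 probe sets was 45.6%. In 5 of the 6 genes the SD was larger in Col-0 than in pmr5, and in TBL28 it was larger in pmr5. Set against all probe sets within 0.5 log2 units of the same signal, the SD of TBL30 exceeded 80.9% of them, that of TBL32 68.8% and that of TBL28 63.2%. For TBL25, TBL23 and TBL34 it exceeded 41.7%, 33.2% and 29.5%. TBL30 lay 0.41 log2 units above the lowest value, so its window also held probe sets that never left that value and have no spread. Its share is therefore not comparable with those of the other members.

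**Figure D2:**
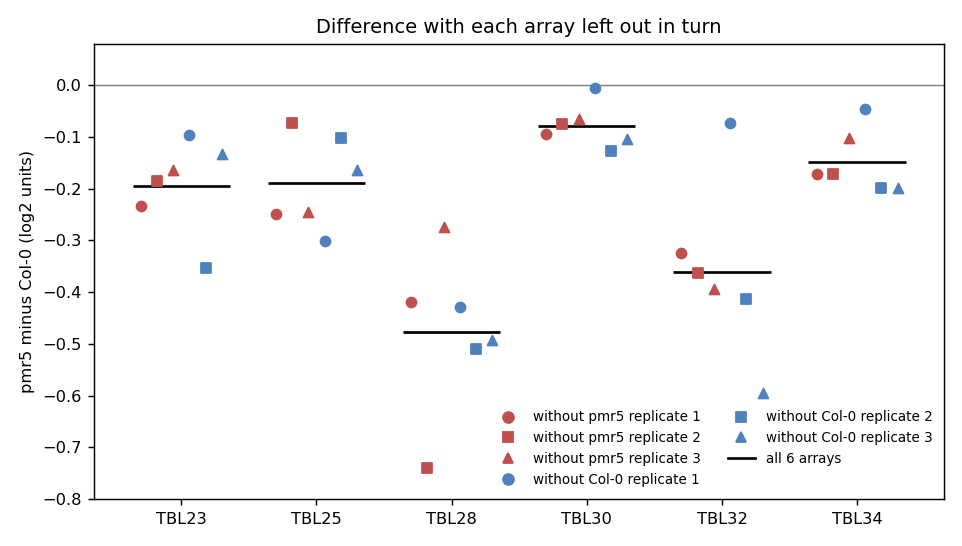
Difference pmr5 minus Col-0 in log2 units (vertical axis) for each TBL gene with all 6 arrays (black bar) and with each array left out in turn (points, coloured by the genotype of the array left out and shaped by its replicate number). All points lie below 0, and without Col-0 replicate 1 (blue circle) those of TBL30, TBL34 and TBL32 are at -0.0043, -0.05 and -0.07.

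Set side by side, both clades had a lower mean in pmr5. The mean signal of the mannan pair was 7.79, 7.57 and 7.72 in pmr5, against 7.87, 7.81 and 7.97 in Col-0. These means did not overlap between the genotypes, although each of the 2 genes did. How often means of 2 genes separate on these arrays was not computed. Their closest arrays, pmr5 replicate 1 and Col-0 replicate 2, were almost level. The mean signal of the 4 xylan genes was 3.83, 4.003 and 3.75 in pmr5, against 4.38, 4.03 and 3.96 in Col-0. Here pmr5 replicate 2 lay above Col-0 replicate 3. The mean difference was -0.19 for the mannan clade and -0.27 for the xylan clade. Without Col-0 replicate 1 these values were -0.20 and -0.14, so which clade had the wider difference turned with that array. With all arrays, the xylan value was -0.42 without TBL30 and TBL34, the members near the lowest value. Within each array, the xylan mean minus the mannan mean was -3.83 ± 0.23 in pmr5 and -3.76 ± 0.26 in Col-0 (SD, n = 3). Between the genotypes this gap differed by -0.07, less than its spread between arrays, and by 0.06 without Col-0 replicate 1. No p is given for these means, because the genes averaged were chosen by name with results of these arrays known.

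**Figure D3:**
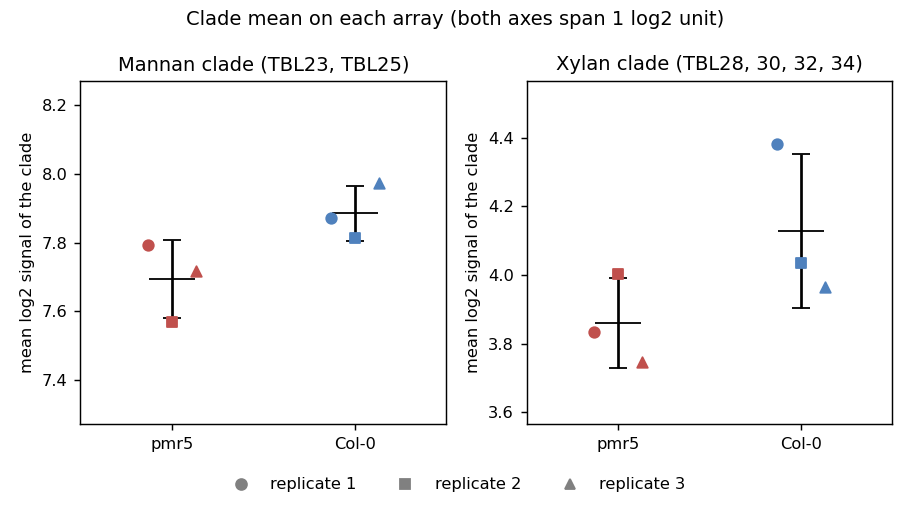
Mean log2 signal (vertical axis, 1 log2 unit high in both panels) of the mannan clade (2 genes) and the xylan clade (4 genes) on each array of pmr5 and Col-0, with the mean as a horizontal bar and error bars of 1 SD (n = 3). The mannan means of pmr5, 7.57 to 7.79, lie below those of Col-0, 7.81 to 7.97, and the xylan means of the genotypes overlap.

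The 6 genes did not share a single pattern over the arrays. Over the 15 pairs of members, Pearson's r ran from -0.29 to 0.95 across the 6 arrays, and 0 pairs had an adjusted exact permutation p under 0.05. Pairs with TBL34 were limited in advance, because TBL34 held 1 value on 4 arrays. Their exact permutation p could not fall below 0.0333 for r or 0.0667 for rho, which cannot pass the adjustment by itself. The 2 mannan genes had an r of -0.14 (exact permutation p = 0.775) and a rho of -0.31 (exact permutation p = 0.564), and r was -0.42 without Col-0 replicates 1 and 3, the arrays farthest from the median of TBL23. The highest r was that of TBL30 and TBL34, 0.95 (exact permutation p = 0.0333, adjusted over the 15 pairs 0.25), with a rho of 0.85 (exact permutation p = 0.0667, adjusted 0.333). Without Col-0 replicate 1 this r was 0.57, and without the 2 arrays farthest from the median of TBL30 no r could be computed, since TBL34 then held 1 value. The next highest, TBL32 with TBL34, had an r of 0.86 (exact permutation p = 0.133, adjusted 0.417) and a rho of 0.34 (exact permutation p = 0.667, adjusted 0.892). TBL30 with TBL32 had an r of 0.85 (exact permutation p = 0.16, adjusted 0.417) and a rho of -0.03 (exact permutation p = 1, adjusted 1). Both turned negative without Col-0 replicate 1, at -0.15 for TBL32 with TBL34 and -0.80 for TBL30 with TBL32, so the positive values rested on that array. With the 2 arrays farthest from the median of the first gene left out they were -0.80 and -0.88. Those arrays were Col-0 replicates 1 and 2 for TBL32 with TBL34, and Col-0 replicate 1 and pmr5 replicate 3 for TBL30 with TBL32. Both negative values of TBL32 with TBL34 rest on pmr5 replicate 3, the only array left on which TBL34 differed. TBL23 and TBL30, one from each clade, had an r of 0.81 (exact permutation p = 0.00833, adjusted 0.125) and a rho of 0.89 (exact permutation p = 0.0333, adjusted 0.333). Their r was 0.91 without Col-0 replicates 1 and 3.

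For each member the genes with the most similar profile were named by Pearson's r over the 6 arrays, among 5010 or 5011 varying single-gene probe sets. With so few arrays high values are common, and between 23 and 190 of the candidates passed an r of 0.9 with each member. These values are descriptions of the 6 arrays, and no p is given for them. For TBL23 the closest was PME61, a pectin methylesterase gene, with an r of 0.99 (rho 0.99), or 0.99 without Col-0 replicate 1, followed by AT1G62085 at 0.97. PME61 itself had a difference of -0.41. For TBL25 they were AT4G14300 at 0.98 and AT3G48080 at 0.97, and for TBL28 AT5G20220 at 0.996 and AT5G26710 at 0.99. For TBL30 they were AT1G27930 at 0.998 and AT3G48420 at 0.99, where the r of AT3G48420 was 0.88 without Col-0 replicate 1. For TBL32 they were AT5G43680 and AT3G13674, both at 0.99, or 0.95 and 0.88 without Col-0 replicate 1. For TBL34 they were AT5G28150 and AT4G15810, both at 0.995, or 0.99 without that array, with a rho of 0.86 and 0.90. Since TBL34 held 1 value on 4 arrays, these likenesses rest on the other 2.

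Of 54 other genes listed for the synthesis, acetylation and breakdown of xylan and mannan and for related TBL enzymes, 10 had a probe set of their own, and the other 44 were not analysed here. With limma 0 of the 10 passed over all probe sets in either direction and 0 had an unadjusted p under 0.05. Of the 10, 4 were lower and 5 higher in pmr5, with a median difference of 0.03, and IRX15, for a protein of xylan synthesis, never left the lowest value. In 0 of the 10 did the genotypes separate.

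The remaining measured TBL genes of these clades had a value each. TBL26, another mannan acetyltransferase, was at 6.99, 11.004 and 7.44 in pmr5, against 9.35, 8.96 and 9.63 in Col-0. Its pmr5 arrays lay on both sides of Col-0, with pmr5 replicate 2 far above and the others below, and the difference was -0.84 (SE 1.22), or -0.82 without Col-0 replicate 1. TBL35, which is known to act on xylan together with TBL34, was at 5.07 ± 0.16 in pmr5 and 5.003 ± 0.05 in Col-0 (SD, n = 3), a difference of 0.07 (SE 0.09), or 0.04 without that array. Of the other listed xylan acetyltransferases, TBL3, ESK1, TBL31 and TBL33 were not analysed here, nor was TBL24 of the mannan group.

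Among the genes of the xylan backbone, GUT2, also known as IRX10 and required for xylan chain elongation, differed by -0.05 (SE 0.18), or -0.07 without Col-0 replicate 1. Its close homologue GUT1 differed by 0.05 (SE 0.33), or 0.27 without that array. IRX15-L, the homologue of IRX15, differed by 0.43 (SE 0.62), less than the SD of 0.67 in pmr5 and 0.90 in Col-0, and by 0.09 without Col-0 replicate 1. In the mannan synthesis list CSLA03, of the glucomannan synthase family, was at 6.65, 6.07 and 6.63 in pmr5, against 6.99, 7.31 and 6.65 in Col-0. Only pmr5 replicate 1 and Col-0 replicate 3, which were level, kept the genotypes from separating, and the difference was -0.53 (SE 0.26, 95% interval -1.22 to 0.15; exact permutation p = 0.2), or -0.53 also without Col-0 replicate 1. CSLA01 of the same family was at 2.81, 5.72 and 4.68 in pmr5, against 2.71, 3.61 and 3.20 in Col-0. Its pmr5 replicate 1 lay among the Col-0 arrays, and the difference was 1.23 (SE 0.85), or 0.999 without Col-0 replicate 1. The 2 CSLA genes thus differed in opposite directions, and neither passed the test. AT2G22900, in the mannan synthesis list, differed by 0.09 (SE 0.19) with and without that array. AT3G03210, the only measured gene of the acetyl donor list, differed by -0.20 (SE 0.22), or -0.12 without it. In the lists of glucuronic acid side chains of xylan, of mannan breakdown and of xyloglucan and pectin TBL enzymes 0 genes were analysed.

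**Figure D4:**
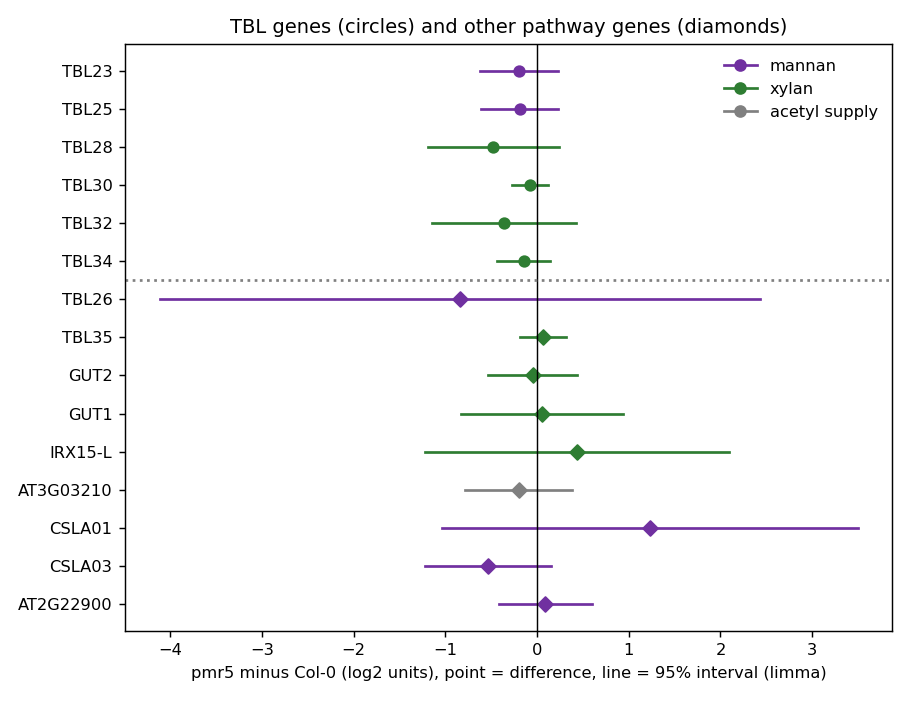
Difference pmr5 minus Col-0 in log2 units (horizontal axis) with its 95% interval from limma (lines) for the 6 TBL genes (circles, above the dotted line) and 9 of the 10 other pathway genes (diamonds; IRX15, at the lowest value on every array, is left out), coloured by polysaccharide. Every interval includes 0, and those of TBL26 and CSLA01 are the widest.

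Some measures outside the pathway separated the genotypes on the same arrays, although 0 of the measured marker genes passed the limma test. The 27 probe sets of the spiked poly-A controls averaged 5.82 ± 0.23 in pmr5 and 6.11 ± 0.11 in Col-0 (SD, n = 3), a difference of -0.29 with no overlap, or -0.32 without Col-0 replicate 1. Their closest arrays, pmr5 replicate 2 at 6.02 and Col-0 replicate 2 at 6.05, were almost level. Of 5 listed guard cell markers 3 were measured, and their summed log2 signal was 18.6 on the pmr5 arrays and 17.8 to 18.0 on the Col-0 arrays. AT1G22690 differed by 0.58 (SE 0.11) and FMA, a transcription factor gene of guard cell fate, by 0.16 (SE 0.06), or 0.67 and 0.11 without Col-0 replicate 1. Both had an adjusted p of 1 in limma, and both had no overlap, where 2.41% of all probe sets separated toward higher values in pmr5. SPCH, which starts the stomatal lineage, stood within 0.1 log2 units of the lowest value on every array. Their part in the differences of the TBL genes was not tested. Of the 17 listed vascular and secondary wall markers 0 were analysed, so the share of xylem, where xylan acetylation is best known, was not compared between the genotypes.

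The other markers overlapped between the genotypes. The trichome gene TRY differed by 0.06 (SE 0.85), or 0.54 without Col-0 replicate 1. The root gene PYK10, at 4.76, 3.28 and 5.86 in pmr5 and 4.08, 3.43 and 5.20 in Col-0, differed by 0.39 (SE 0.87), or 0.31 without that array. Of the leaf markers LHCB4.1 differed by 0.10 (SE 0.09), LHCB4.2 by 0.17 (SE 0.13) and RCA by -0.01 (SE 0.01). Without Col-0 replicate 1 these values were 0.17, 0.19 and -0.0069.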

How the data were processed

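The data were 6 one-colour Affymetrix arrays, 3 of pmr5 and 3 of Col-0, grouped by the labels' titles. The authors deposited log2 signals for each probe set, made with RMA in affy per the submitters' processing notes. Versions and the origin of the shared lowest value are not given in the sources used here. Of 22810 probe sets 64 controls were left out. The platform's annotation paired 13513 with 1 gene, of which 13436 matched the RefSeq table of TAIR10.1, used for names, loci and neighbours. The deposited values were fitted as they stood with limma 3.58.1 (lmFit, eBayes; R 4.3.3), pmr5 minus Col-0, 2-sided, with Benjamini-Hochberg adjustment over 22746 probe sets at 0.05. SE and intervals are limma's. Single values were also compared by exact permutation. Only the limma fit was tested on simulated data, with planted differences much wider than those of the members, in probe sets never at the lowest value. The number of arrays limits the precision.

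The members, gene lists and naming rule were chosen with earlier results of these data known. The rule named the 6 members, up to 4 genes of each pathway list by smallest p, up to 3 of each marker list by signal, and the 2 genes most correlated with each member among probe sets with an SD of at least 0.2. Alternatives were each array left out in turn, the replicate number as a block, dim probe sets removed, arrays centred on medians or quantile normalized, array weights, a robust prior with an intensity trend, unequal variances and, added after the data were seen, removal of probe sets at the lowest value and xylan means without some members.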

Additional observations from a re-analysis of the deposited data

How the results depend on the processing

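In 75 of 75 fits of a member under 13 alternative settings the difference stayed negative, and 0 passed the threshold in limma (adjusted p from 0.367 to 1). Some of these settings cannot change the difference in a balanced design, so their sign was fixed in advance. The replicate block, the intensity trend with robust prior and both removals of probe sets left it as in the main fit. When arrays were left out in turn, 0 to 13 of all probe sets passed. There were 13 without pmr5 replicate 2 and 4 without pmr5 replicate 3. Leaving out either pmr5 replicate 1 or Col-0 replicate 3 gave 2, and in all these fits 0 members and 0 pathway genes passed. The mannan clade had a mean difference between -0.24 and -0.13 in these fits, and -0.12 with array weights. The xylan clade had one between -0.35 and -0.14, and -0.42 without TBL30 and TBL34, the members near the lowest value. Without TBL32, whose probe set has the _s_at suffix, the xylan mean difference was -0.23. The difference in the gap between the clades lay between -0.21 (pmr5 replicate 2 left out) and 0.06 (Col-0 replicate 1 left out). Removing dim probe sets took out TBL30, TBL32 and TBL34 and so gave no xylan value. With array weights the difference of TBL23 was -0.04.

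With the replicate number as a block 0 probe sets and 0 members passed. Whether the numbers pair the samples could not be settled here, because deviations within a group of 3 arrays sum to 0 and so depend on each other. Deviations from the group means correlated at 0.12, -0.28 and 0.19 for numbers 1, 2 and 3 over the 15900 varying probe sets. Of the 3 pmr5 arrays 1, and of the 3 Col-0 arrays 2, correlated best with their own number.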
